A study of Mus musculus with 12 samples.

Results

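The Cyp2a genes were taken by name from the deposited tables of counts per gene. The tables held 24062 genes, and the 4 rows chosen were Cyp2a4, Cyp2a5, Cyp2a12 and Cyp2a22. All 4 passed the filter on low counts that left 12481 genes for testing. Liver RNA was sequenced from 12 female C57BL/6J mice without any transgene or deletion named in the labels. The mice arrived at 6 weeks of age, were acclimated for 2 weeks and were all moved to a control diet (15% of energy from fat, 65% from carbohydrate and 20% from protein) 3 days before the experiment began. For 10 days, 6 of the sequenced mice stayed on the control diet and 6 received a matched diet that supplied BIBB-515 at 55 mg/kg body weight. BIBB-515 inhibits lanosterol synthase (Lss), an enzyme of cholesterol synthesis, and the comparison asked how liver transcripts differed with this inhibitor in the diet.

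Cytochromes P450 of the Cyp2a subfamily are heme enzymes of the endoplasmic reticulum that insert an oxygen atom into steroids, drugs and other small molecules, with electrons delivered by P450 oxidoreductase (Por). CYP2A5 is the coumarin hydroxylase of mouse liver and the counterpart of the human nicotine-metabolising enzyme CYP2A6, and its gene is known to be inducible by foreign compounds. CYP2A4, almost identical to it in sequence, hydroxylates testosterone and is known for its higher expression in the livers of adult females than of adult males. CYP2A12 is also a testosterone hydroxylase.

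The 4 genes lay within 730 kb of chromosome 7 (mm10), and each was counted over 9 exons. Cyp2a4 spanned chr7:26307192-26315088 on the plus strand. Cyp2a5, 520 kb further along, spanned chr7:26835339-26843264 on the plus strand. Cyp2a22 spanned chr7:26931631-26939386 on the minus strand, and Cyp2a12 spanned chr7:27029090-27036815 on the plus strand. The family consisted of a pair of near copies (Cyp2a4 and Cyp2a5) and a second pair of close relatives (Cyp2a12 and Cyp2a22). The coding sequences of Cyp2a4 and Cyp2a5 differed at 23 of 1482 bases (98.4% identity), and those of Cyp2a12 and Cyp2a22 at 45 of 1476 bases (97.0% identity). Between the pairs the coding identity was 74.9% to 76.0%.

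How far reads of Cyp2a4 and Cyp2a5 can be told apart depends on where those 23 bases lie, so the exon with the most differences and one of those with the fewest are shown here, from GENCODE transcripts on GRCm38, with capitals on the bases that differ between the 2 genes. Exon 4 held 5 of the 23 differences. Exon 6, like exon 7, held 1.
Cyp2a4 exon 4, chr7:26308928-26309088, plus strand: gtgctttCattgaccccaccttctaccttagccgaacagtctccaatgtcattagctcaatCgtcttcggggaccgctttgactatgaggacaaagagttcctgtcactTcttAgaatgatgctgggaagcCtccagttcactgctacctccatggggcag
Cyp2a5 exon 4, chr7:26837091-26837251, plus strand: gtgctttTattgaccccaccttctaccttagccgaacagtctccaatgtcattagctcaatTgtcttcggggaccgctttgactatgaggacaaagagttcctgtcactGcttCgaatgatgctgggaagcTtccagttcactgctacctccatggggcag
Cyp2a4 exon 6, chr7:26312187-26312328, plus strand: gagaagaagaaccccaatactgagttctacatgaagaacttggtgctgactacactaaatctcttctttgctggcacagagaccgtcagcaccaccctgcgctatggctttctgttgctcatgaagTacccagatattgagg
Cyp2a5 exon 6, chr7:26840360-26840501, plus strand: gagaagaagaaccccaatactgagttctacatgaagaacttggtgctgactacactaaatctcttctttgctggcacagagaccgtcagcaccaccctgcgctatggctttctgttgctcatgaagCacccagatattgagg

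The DNA in front of the genes was compared because Cyp2a4 and Cyp2a5 differed in their response to the diet, as described further on. The 250 bases before the RefSeq start (GRCm38.p6) of Cyp2a4 and of Cyp2a5 were 97.6% identical, with 4 substituted bases and 2 gap positions at the ends of the alignment. For Cyp2a12 and Cyp2a22 the same stretch was 82.8% identical, and between the pairs 122 to 133 bases were identical. The 4 stretches are given on the strand of each gene, and capitals mark bases that differ from the other gene of the pair or have no counterpart in it.
Cyp2a4, chr7:26306942-26307191, plus strand: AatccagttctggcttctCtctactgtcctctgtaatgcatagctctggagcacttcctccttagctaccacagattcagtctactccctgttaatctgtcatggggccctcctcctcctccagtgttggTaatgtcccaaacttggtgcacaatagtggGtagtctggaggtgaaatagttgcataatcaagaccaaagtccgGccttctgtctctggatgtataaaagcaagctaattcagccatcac
Cyp2a5, chr7:26835089-26835338, plus strand: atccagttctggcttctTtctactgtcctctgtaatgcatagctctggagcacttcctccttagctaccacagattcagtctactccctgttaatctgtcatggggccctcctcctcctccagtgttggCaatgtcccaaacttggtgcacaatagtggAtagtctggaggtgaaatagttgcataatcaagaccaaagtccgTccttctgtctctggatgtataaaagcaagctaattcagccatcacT
Cyp2a12, chr7:27028840-27029089, plus strand: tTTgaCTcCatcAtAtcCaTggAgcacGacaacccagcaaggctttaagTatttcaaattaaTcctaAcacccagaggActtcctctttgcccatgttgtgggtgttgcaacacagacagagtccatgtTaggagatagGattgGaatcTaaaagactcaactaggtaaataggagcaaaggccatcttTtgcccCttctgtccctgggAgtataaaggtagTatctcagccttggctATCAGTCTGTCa
Cyp2a22, chr7:26939387-26939636, minus strand: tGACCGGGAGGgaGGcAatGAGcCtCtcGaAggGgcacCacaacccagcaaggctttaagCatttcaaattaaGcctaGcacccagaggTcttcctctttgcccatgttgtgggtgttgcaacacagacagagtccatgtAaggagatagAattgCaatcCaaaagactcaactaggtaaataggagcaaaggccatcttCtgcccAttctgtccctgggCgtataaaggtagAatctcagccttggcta

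A TATA box (TATAAA, searched on both strands, as were the other motifs) began 28 bases before the start of Cyp2a4, 29 before that of Cyp2a5, 39 before that of Cyp2a12 and 28 before that of Cyp2a22. The same 6 letters occurred in 12.97% of 27025 mouse promoters over the same length. The nuclear receptor half-site AGGTCA (13.8% of promoters), the antioxidant response core TGACNNNGC (10.2%), the E-box CACGTG (6.05%) and the letters TTATGTAA, a site of the PAR bZIP factors (0.862%), were in none of the 4 stretches. A match or its absence describes only these letters in these windows.

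Total counts per library ran from 22764819 to 31058370. Of 12481 genes tested, 13.7% differed between the diets at a false discovery rate (FDR) under 0.05 in edgeR's quasi-likelihood test, 7.18% being higher and 6.48% lower with BIBB-515, and the mice of the 2 diets did not overlap for 7.07%. The libraries carried hepatocyte transcripts at a very high level: 6 hepatocyte markers summed to between 137974 and 157866 CPM (a gene's counts in each 1000000 counts of a library) in control livers and between 104907 and 120246 CPM with BIBB-515. Of these 6, Alb (albumin), Ttr (transthyretin) and Serpina1c fell, and none rose. Summed markers of bile duct (62.6 to 116 CPM in control livers, 91.9 to 154 CPM with BIBB-515), macrophages (186 to 259 CPM and 164 to 255 CPM), endothelium (106 to 147 CPM and 103 to 146 CPM) and stellate cells (102 to 156 CPM and 101 to 153 CPM) overlapped between the diets. In those lists 1 of 18 tested genes, the stellate marker Lrat, passed the test, and it fell. The part that these shifts play in the Cyp2a results was not tested.

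Of the 4 Cyp2a genes, 3 rose with BIBB-515 and none fell. Cyp2a5 rose 3.39-fold, Cyp2a22 1.51-fold and Cyp2a12 1.29-fold, whereas Cyp2a4, the copy of Cyp2a5, had a fold change of 0.775 that did not pass the test. The share of 3 in 4 stands against 7.18% of all tested genes that rose. The family was chosen with earlier results of these data known, so the 2 shares are not a test. Cyp2a5 and Cyp2a12 were also 2 members of the 7.07% of genes whose diets did not overlap. RNA came from whole liver, so a difference in the number of expressing cells and a difference in RNA per cell cannot be told apart.

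Cyp2a5, the coumarin hydroxylase gene, had a lowest value of 249 CPM, a median of 331 CPM and a highest value of 568 CPM in the 6 control livers. With BIBB-515 the lowest value was 1048 CPM, the median 1251 CPM and the highest 1525 CPM. Every BIBB-515 liver was above every control liver, and control mouse 2 was the highest of its group. The means were 366 ± 110 CPM (SD, n = 6) and 1243 ± 179 CPM (SD, n = 6). The log2 fold change was 1.76 (SE 0.17, FDR 1.18e-05). An exact permutation of the diet labels (two-sided, mean log2 CPM) gave p = 0.00216, the smallest value that 6 against 6 allows. By p-value Cyp2a5 ranked 36 among all tested genes, and 37 genes that passed the test had a larger rise.

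Cyp2a4, the steroid hydroxylase gene next in sequence to Cyp2a5, ran from 688 CPM through a median of 1230 CPM to 1825 CPM in control livers. With BIBB-515 it ran from 673 CPM through a median of 930 CPM to 1205 CPM. The diets overlapped, although 6 of 6 BIBB-515 livers were below the control mean. The means were 1212 ± 374 CPM (SD, n = 6) and 939 ± 196 CPM (SD, n = 6). The log2 fold change was -0.37 (SE 0.19, FDR 0.220), and the exact permutation p was 0.171. Leaving out single mice moved the log2 fold change between -0.49 and -0.20 with an FDR no lower than 0.0748.

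Cyp2a12, a testosterone hydroxylase gene, had the smallest coefficient of variation of the 4 on both diets (11.0% in control livers and 6.70% with BIBB-515). In control livers its lowest value was 489 CPM, its median 576 CPM and its highest 676 CPM. With BIBB-515 these values were 678 CPM, 761 CPM and 787 CPM. The diets did not overlap, but the highest control liver and the lowest BIBB-515 liver were almost level. The means were 578 ± 63.7 CPM (SD, n = 6) and 744 ± 49.8 CPM (SD, n = 6), with a log2 fold change of 0.36 (SE 0.08, FDR 0.00955). The exact permutation p was again 0.00216.

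Cyp2a22, the close relative of Cyp2a12, was the lowest member. It ran from 52.7 CPM through a median of 62.4 CPM to 102 CPM in control livers and from 71.3 CPM through a median of 106 CPM to 117 CPM with BIBB-515. The diets overlapped through control mouse 2 alone, which was far above the other controls, at 102 CPM against 67.4 CPM for the next. BIBB-515 mouse 9, at 71.3 CPM, was far below the others of its group but above those 5 controls. All 6 BIBB-515 livers were above the control mean, and 4 of the 6 were above every control liver. The means were 67.2 ± 17.97 CPM (SD, n = 6) and 102 ± 15.9 CPM (SD, n = 6), with a log2 fold change of 0.60 (SE 0.15, FDR 0.0183) and an exact permutation p of 0.00649.

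**Figure D1:**
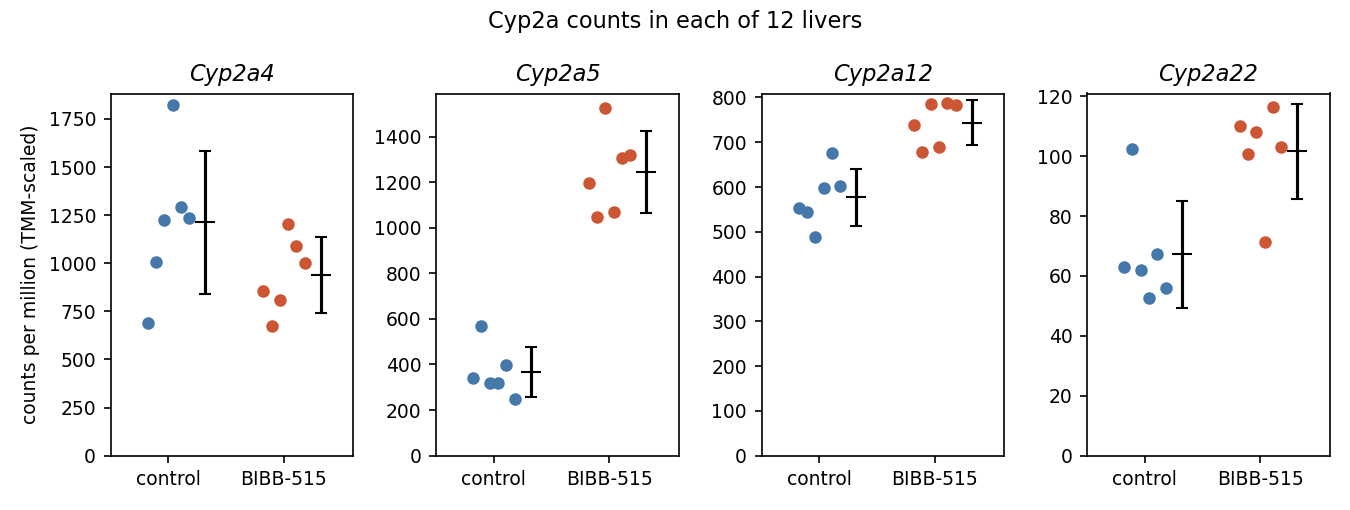
CPM values (vertical axes, each from 0, scaled by the trimmed mean of M-values) of the 4 Cyp2a genes in each liver, with control mice in blue, BIBB-515 mice in red, and the mean and SD of 6 mice in black. The diets separate for Cyp2a5 (249 to 568 CPM against 1048 to 1525 CPM) and narrowly for Cyp2a12, and overlap for Cyp2a4 and Cyp2a22.

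Levels of different genes were compared per kilobase of exon. Reads that map to several places were left out, so the levels of near copies are low estimates, and by unequal amounts. The length used for Cyp2a22, 2226 bases, included a thinly covered last exon of 902 bases. How far the order of the members depends on these limits was not tested. In control livers Cyp2a4 was the highest member, at 707 ± 218 CPM per kb (SD, n = 6). Cyp2a12 followed with 347 ± 38.3 CPM per kb, Cyp2a5 with 214 ± 64.0 CPM per kb and Cyp2a22 with 30.2 ± 8.07 CPM per kb. This order held in 5 of 6 control livers. In the remaining one Cyp2a5 stood above Cyp2a12, and across the group the ranges of these neighbours overlapped (145 to 331 CPM per kb for Cyp2a5 and 294 to 407 CPM per kb for Cyp2a12). The ranges of Cyp2a4 (401 to 1064 CPM per kb) and Cyp2a12 overlapped only between their extremes.

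With BIBB-515 the order of the levels was different. Cyp2a5 was the highest member, at 725 ± 104 CPM per kb (SD, n = 6), followed by Cyp2a4 with 548 ± 114 CPM per kb, Cyp2a12 with 447 ± 29.9 CPM per kb and Cyp2a22 with 45.7 ± 7.13 CPM per kb. This order held in 3 of 6 BIBB-515 livers. In 2 others Cyp2a12 stood above Cyp2a4, and in 1 Cyp2a4 stood first. Cyp2a5 ranked first in 5 of 6 BIBB-515 livers and in none of the 6 control livers. The ranges of Cyp2a5 (611 to 889 CPM per kb) and Cyp2a4 (393 to 703 CPM per kb) overlapped, as did those of Cyp2a4 and Cyp2a12, while Cyp2a22 stayed below all others in 12 of 12 livers.

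The summed level of the 4 genes ran from 1647 to 2796 CPM in control livers and from 2500 to 3299 CPM with BIBB-515, with means of 2223 ± 382 CPM and 3028 ± 297 CPM (SD, n = 6 each). The ranges overlapped, and the ratio of the means was 1.36. The make-up of the sum separated the diets more clearly than its size. Cyp2a5 contributed 11.5% to 25.5% of the Cyp2a counts in control livers and 35.2% to 47.2% with BIBB-515. Cyp2a4 contributed 41.8% to 65.2% and 25.0% to 39.7%. The shares of Cyp2a12 (21.4% to 33.6% and 22.8% to 27.1%) and of Cyp2a22 (1.89% to 4.60% and 2.35% to 4.03%) overlapped between the diets.

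**Figure D2:**
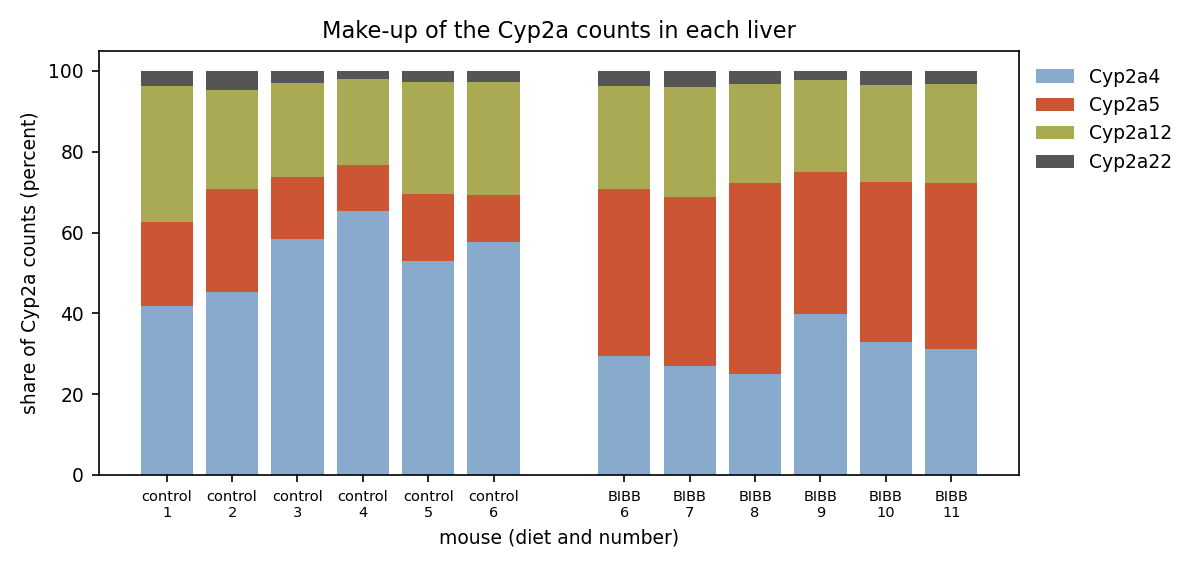
Share of each Cyp2a gene in the summed Cyp2a counts (percent, stacked bars) for 6 control and 6 BIBB-515 livers. The red segment of Cyp2a5 takes 11.5% to 25.5% of the bar in control livers and 35.2% to 47.2% with BIBB-515, and the blue segment of Cyp2a4 is shorter in every BIBB-515 liver than in every control liver.

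Whether the members responded unequally was tested on the log2 ratio of their counts within each liver, so that scaling between libraries had no part in it. Diet labels were permuted exactly for each of the 6 pairs (two-sided), and p-values were adjusted over the 6 pairs by the Benjamini-Hochberg method. The response of Cyp2a5 differed from that of each other member. The ratio of Cyp2a5 to Cyp2a4 ran from 0.176 to 0.563 with a median of 0.285 in control livers, and from 0.885 to 1.89 with a median of 1.35 with BIBB-515. It was higher in every BIBB-515 liver than in any control liver, and its mean log2 value differed by 2.13 (-1.71 ± 0.68 against 0.42 ± 0.37, SD, n = 6 each, adjusted exact permutation p = 0.00433). Relative to Cyp2a5, Cyp2a12 was lower by a log2 difference of -1.43 and Cyp2a22 by -1.18 with BIBB-515, without overlap between the diets and with the same adjusted exact permutation p of 0.00433.

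Cyp2a12 and Cyp2a22 responded unequally to Cyp2a4 as well, by less. The log2 ratio of Cyp2a12 to Cyp2a4 was higher by 0.70 with BIBB-515 (adjusted exact permutation p = 0.0195), and that of Cyp2a22 to Cyp2a4 by 0.95 (adjusted exact permutation p = 0.0208), with overlap between the diets in both cases. The second of these was close to the threshold of 0.05. Without BIBB-515 mouse 6 the adjusted exact permutation p was 0.0519, without mouse 7 it was 0.0545, and without mouse 8 it was 0.0519. The log2 difference stayed between 0.76 and 1.13 with any 1 mouse left out, and fewer labelings were then available. No difference in response was detected between Cyp2a22 and Cyp2a12, whose log2 ratio was -3.13 ± 0.40 in control livers and -2.89 ± 0.20 with BIBB-515 (SD, n = 6 each), a difference of 0.25 with an adjusted exact permutation p of 0.210. That result rested on control mouse 2, and without it the difference was 0.39 with an adjusted exact permutation p of 0.0195.

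Because Cyp2a4 and Cyp2a5 are near copies, their counts were examined for reads that could have been placed on the wrong gene. Of all 50-base words in the exons of Cyp2a4, 39.3% also occurred in GENCODE transcripts of another gene, and of those of Cyp2a5 48.1%. The genes that shared them were each other, the pseudogene Cyp2a21-ps and, for Cyp2a4, the gene Gm42375. For Cyp2a12 and Cyp2a22, which shared words with each other alone, the shares were 27.8% and 25.7%. With 100-base words the shares fell to 11.3% for Cyp2a4, 17.0% for Cyp2a5, 6.90% for Cyp2a12 and 6.36% for Cyp2a22. Neither Cyp2a21-ps nor Gm42375 was a row of the deposited tables. The file headers show counting without a strand option, so reads of a gene and of any antisense transcript cannot be told apart.

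The difference between the diets had the same sign over all 9 exons of each gene. For Cyp2a5 the log2 difference in exon counts ran from 1.70 (exon 8) to 1.97 (exon 2), and the diets did not overlap in 9 of 9 exons. For Cyp2a4 it ran from -0.39 (exon 5) to -0.18 (exon 1), with overlap in all 9. In exon 4, printed above, where 3.57% of 50-base words were shared with another gene, the log2 difference was 1.83 (SE 0.20) for Cyp2a5 and -0.31 (SE 0.21) for Cyp2a4. In exon 6, where 92.5% of the words of Cyp2a5 and 82.8% of those of Cyp2a4 were shared, it was 1.82 (SE 0.18) and -0.32 (SE 0.23). The other exon with few shared words, exon 2 (5.26% in both genes), gave 1.97 (SE 0.21) for Cyp2a5 and -0.24 (SE 0.19) for Cyp2a4. Exon 8, where 64.5% of the words of Cyp2a5 and 87.1% of those of Cyp2a4 were shared, gave 1.70 (SE 0.18) and -0.39 (SE 0.26). The sign for each gene was the same in these 4 exons, and the size was not constant across them. The exons are not independent checks, because a read that spans exons was counted in each of them. Reads that map to several places were left out, so reads counted in a shared stretch were placed by bases that differ. Likeness between exons was therefore partly built in, and the part played by misplaced reads was not tested.

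Read depth was uneven along the exons. In control livers exon 4 of Cyp2a4 received 105 CPM per 100 bases and exon 6 71.0 CPM per 100 bases, and for Cyp2a5 the values were 33.8 and 19.7. Exon 6 was covered less than exon 4 in both genes and on both diets, with 67.8 against 117 CPM per 100 bases for Cyp2a5 with BIBB-515. Depth did not simply follow the share of shared words. Exons 7 and 8, which also held many, were the deepest in control livers (144 and 143 CPM per 100 bases for Cyp2a4, 45.7 and 47.1 for Cyp2a5). Exon 5, with 4 differing bases, was below exon 6, at 55.4 for Cyp2a4 (37.5% of words shared) and 15.0 for Cyp2a5 (72.7% shared). For Cyp2a12 the exon differences ran from 0.33 (exon 5) to 0.49 (exon 1), with no overlap between the diets in 4 of 9 exons. For Cyp2a22 they ran from 0.46 (exon 8) to 0.81 (exon 3), with overlap in all 9. All 9 exons of both genes were higher with BIBB-515. In exon 4, where none of the 50-base words of Cyp2a12 and Cyp2a22 was shared, the log2 differences were 0.43 (SE 0.07) and 0.80 (SE 0.19).

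**Figure D3:**
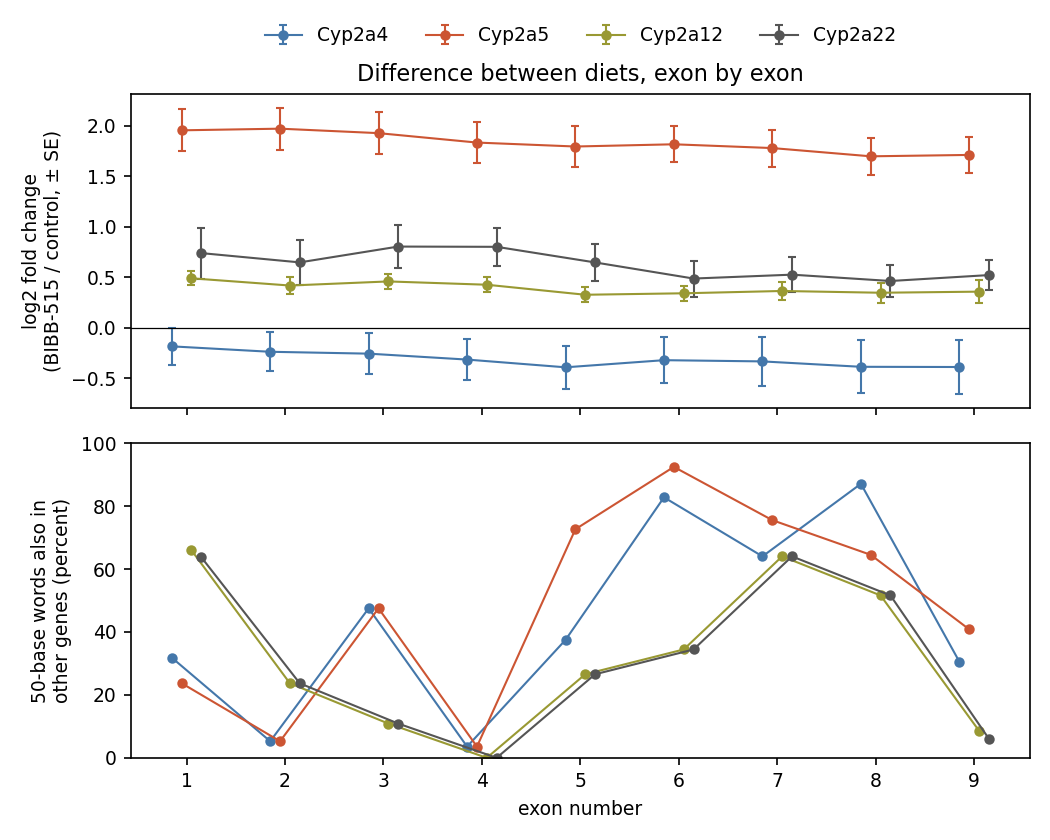
Upper panel, log2 difference between BIBB-515 and control livers in the counts of each exon (points, with SE over 6 mice per diet) for the 4 genes. Lower panel, percent of the 50-base words of that exon that also occur in transcripts of other genes. The upper lines stay apart from exon 1 to exon 9 (1.70 to 1.97 for Cyp2a5 and -0.39 to -0.18 for Cyp2a4) while the lower lines of these genes swing between 3.57% and 92.5%. A read that spans exons counts in each, so the points of a gene are not independent.

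A second set of deposited tables, which counted every primary alignment for each gene it touched, gave nearly the same counts for the Cyp2a genes, none of which overlaps an exon of another gene in the annotation. Per liver it added 27 to 48 reads to Cyp2a4 in control mice and 83 to 107 with BIBB-515, at most 0.493% of that gene's count. The reads added to Cyp2a5 numbered the same in 9 of 12 livers and differed by at most 2 in the others. For Cyp2a12 and Cyp2a22 at most 3 reads were added. Such tables add a read that touches exons of both genes to both of them, and the number added was larger in every BIBB-515 liver than in every control liver. Over all genes without exon overlap these tables added 0.0237% to the counts, and over genes with an exon overlap 44.1%. With so few reads added, the near equality of the counts does not show how many reads that map to several places were left out. When the counts of Cyp2a4 and Cyp2a5 were summed into a single feature, its log2 fold change was 0.47 with an FDR of 0.0401.

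The Cyp2 genes around the family were described from a list of 13, the 4 Cyp2a genes included. Of 10 tested, 6 rose and none fell, and the median log2 fold change was 0.48 against -0.01 over all tested genes. Of all tested genes 7.18% rose. The 4 Cyp2a genes are among the 10, so this count partly repeats the result for the family. The 3 risers outside the Cyp2a genes were Cyp2b10, Cyp2f2 and Cyp2g1. Cyp2b10, the classical phenobarbital-inducible P450 gene, ran from 7.67 to 64.9 CPM in control livers and from 340 to 546 CPM with BIBB-515, a log2 fold change of 3.98 (SE 0.47, FDR 7.66e-05). Its highest control value, like those of Cyp2a5 and Cyp2a22, was in mouse 2.

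Cyp2f2, the naphthalene-metabolising P450 gene on the far side of Cyp2a12, ran from 507 to 815 CPM in control livers and from 1143 to 1413 CPM with BIBB-515, a log2 fold change of 0.99 (SE 0.12, FDR 6.75e-05). Cyp2g1, a P450 gene best known from the olfactory mucosa, lay 14.1 kb before Cyp2a5 and was low in liver, at 5.01 ± 1.77 CPM and 9.66 ± 1.68 CPM (SD, n = 6 each), a log2 fold change of 0.95 (SE 0.19, FDR 0.00495). It also stood in a list of 4 nasal and lung genes, of which Scgb1a1 was at 0 in all livers, Omp reached no more than 14 counts in any, and Cyp4b1 did not pass the test (FDR 0.0997).

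The genes nearest to Cyp2a4 on its other side, Cyp2b9 and Cyp2b13, did not pass the test. Cyp2b10, which rose as given above, lay beyond them on that side. Cyp2b9 and Cyp2b13 are known, like Cyp2a4, for higher expression in female than in male liver. Cyp2b9 had a log2 fold change of 0.02 (SE 0.12, FDR 0.948), from 489 ± 98.9 CPM to 495 ± 51.2 CPM (SD, n = 6 each). Cyp2b13 had one of -0.65 (SE 0.21, FDR 0.0513), from 132 ± 40.8 CPM to 84.1 ± 23.0 CPM. Cyp2s1 was near 1 CPM and had a log2 fold change of -0.23 (SE 0.35, FDR 0.699). Cyp2b19, Cyp2b23 and Cyp2t4 were below the filter, with at most 2, 1 and 15 counts in any liver.

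**Figure D4:**
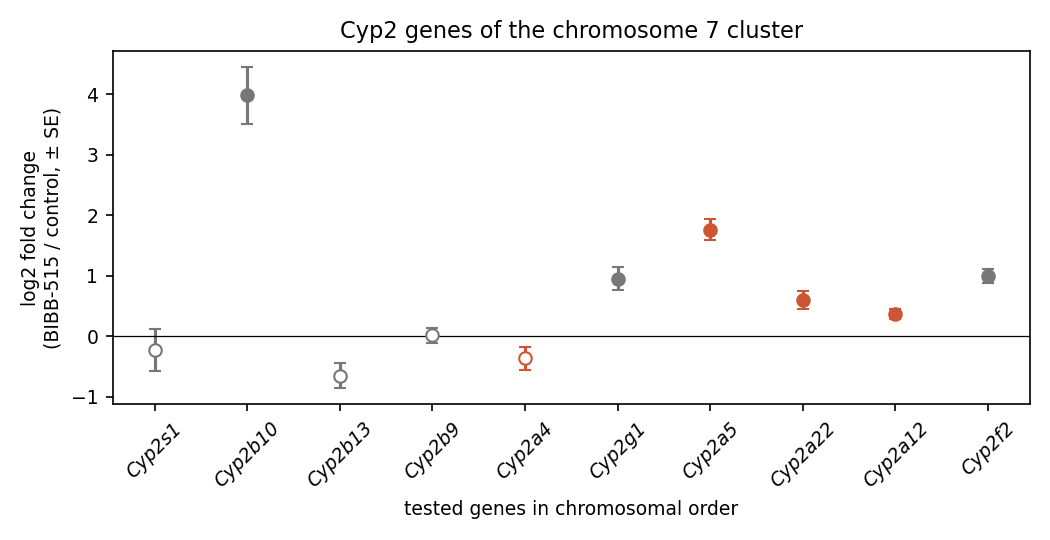
Log2 fold change with SE (vertical axis) of the 10 tested Cyp2 genes of chromosome 7, in their order along the chromosome. Cyp2a genes are in red, other genes in grey, and filled points passed an FDR of 0.05: Cyp2b10 at 3.98, Cyp2g1 at 0.95, Cyp2a5 at 1.76, Cyp2a22 at 0.60, Cyp2a12 at 0.36 and Cyp2f2 at 0.99.

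A list of electron donors held 4 genes, for P450 oxidoreductase, cytochromes b5 and cytochrome b5 reductase. Of these, 3 were tested, 1 rose and none fell. Over all tested genes 7.18% rose, and a list of 3 is too short to set against that share. Por, the reductase that serves microsomal P450s, ran from 396 to 754 CPM in control livers and from 847 to 1002 CPM with BIBB-515, without overlap, for a log2 fold change of 0.79 (SE 0.14, FDR 0.00265). Cyb5b, an outer mitochondrial membrane cytochrome b5, had a log2 fold change of 0.20 (SE 0.08, FDR 0.128), and Cyb5r3, the cytochrome b5 reductase, one of 0.12 (SE 0.14, FDR 0.611). Cyb5a was not analysed here.

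Among 22 genes for transcription factors and other proteins tied to liver P450 expression, none rose and 2 fell, with a median log2 fold change of -0.12. A count of 2 in 22 is near the 6.48% of all tested genes that fell. Cux2, a female-predominant factor of liver, ran from 53.9 to 99.5 CPM in control livers and from 5.58 to 41.7 CPM with BIBB-515, without overlap, and fell by 2.08 on the log2 scale (SE 0.46, FDR 0.00897). Ppargc1a, a coactivator of fasting metabolism, fell by 0.79 on the log2 scale (SE 0.19, FDR 0.0139). The transcripts of the xenobiotic receptors did not pass the test: the log2 fold change was 0.02 (SE 0.12, FDR 0.929) for Nr1i3, which encodes CAR, and 0.29 (SE 0.10, FDR 0.0658) for Nr1i2, which encodes PXR. Nfe2l2, which encodes NRF2, had one of -0.03 (SE 0.10, FDR 0.874). Transcript levels do not measure the activity of these proteins.

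Genes of the liver lobule were listed because P450 genes are expressed by zone. Over all tested genes 7.18% rose and 6.48% fell, and the zone lists, of 10 genes each, were not tested against these shares. Of 10 genes of the pericentral zone, 1 rose and 4 fell, with a median log2 fold change of 0.02. Cyp1a2, a P450 gene, rose (0.73, SE 0.10, FDR 0.000324). Glul, glutamine synthetase, fell by 0.29 on the log2 scale (FDR 0.0272), Slc1a2, a glutamate transporter, by 0.34 (FDR 0.0265), Lgr5, a Wnt pathway receptor, by 0.51 (FDR 0.0322) and Gulo, an enzyme of vitamin C synthesis, by 0.45 (FDR 0.00148). Of 10 genes of the periportal zone, 3 rose and 1 fell, with a median of -0.09. These 10 include Ass1, which was near 1 CPM (at most 43 counts in any liver) and did not pass the test (FDR 0.326). Cyp2f2, given above, Hal, histidine ammonia-lyase (0.55, FDR 0.00450), and Hsd17b13, a lipid droplet protein (0.28, FDR 0.0413), rose. Pck1, an enzyme of gluconeogenesis, fell by 0.56 on the log2 scale (FDR 0.0188). Its levels overlapped between the diets. The direction is opposite to the paper, which reports by qPCR of liver from this experiment that Pck1 expression increased with BIBB-515. That qPCR covered more mice per diet than were sequenced here and was normalized to B2M. The reason for the difference was not tested. Summed levels overlapped between the diets for both zones.

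Within the diets the 4 genes varied from mouse to mouse in different ways. After subtraction of each diet's mean log2 CPM, Cyp2a5 and Cyp2a22 followed each other over the 12 livers (Pearson r = 0.81, Spearman rho = 0.78), and r was 0.62 without the 2 mice farthest from the median of Cyp2a5. Cyp2a5 and its near copy Cyp2a4 did not (r = -0.18, rho = -0.11). For Cyp2a12 and Cyp2a5 the value depended on the mice included: r was 0.18 and rho 0.50 over the 12 livers, r was 0.75 without the 2 mice farthest from the median of Cyp2a5 and near 0 without the 2 farthest from that of Cyp2a12, and within the diets it was -0.05 in control livers and 0.92 with BIBB-515. Cyp2a12 had an r of 0.29 (rho = 0.37) with Cyp2a4 and of 0.07 (rho = 0.37) with Cyp2a22. These correlations describe the 12 libraries, whose values share each library's depth and scaling.

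Of 11168 genes compared in the same way, those outside the family closest to Cyp2a5 were Pramef8 (r = 0.91), Mettl7a1 (r = 0.88) and Wbp11 (r = 0.85), and r was 0.71, 0.75 and 0.57 without the 2 farthest mice. Closest to Cyp2a4 were H13 (r = 0.94), Fbxl6 (r = 0.93) and Arpc2 (r = 0.90). Closest to Cyp2a12 were Rps19bp1 (r = 0.94), Serpina1a (r = 0.93) and Nop16 (r = 0.92). Closest to Cyp2a22 were 9430038I01Rik (r = 0.91), Trim37 (r = 0.90) and Cep120 (r = 0.89). With 12 points and this many genes, high values of r arise readily, and they carry no test here.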

How the data were processed

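Reads were aligned with STAR 2.5.3a and counted with featureCounts of Subread 1.6.3, per the submitters' processing notes and the file headers, on mm10 with UCSC genes; library preparation and read length are not given in the sources used here. The deposited values are counts, whole numbers per gene in each of 12 livers. From these, genes that reached 1 CPM in 2 or more livers were kept and tested in edgeR 4.0.16 (TMM scaling, quasi-likelihood F-test, diet as the only term) under R 4.3.3, with Benjamini-Hochberg FDR over 12481 genes. CPM values are scaled by TMM. SE is the absolute log2 fold change over the square root of F. Ratios between members used counts plus 0.5. Tables of primary alignments and of exons were used as described, and transcript tables were not used. limma 3.58.1, DESeq2 1.42.0 and sva 3.50.0 served the alternatives. Code was tested on simulated data. Groups came from the labels, and diets were compared mouse against mouse; cages were not given per mouse.

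Members and lists were chosen with earlier results of these data known. Named were all 4 members, every measured Cyp2 gene of the chromosome 7 list, the electron donors, regulators and zonation genes past the FDR threshold, Nr1i3, Nr1i2 and Nfe2l2 in any case, and for each member the 3 closest genes (average log2 CPM 1 or higher). The 4 fat markers below the filter were at most 3 counts in any liver (Lep at 0), and Fabp4 did not pass the test (FDR 0.735). Sequences are from GENCODE M21 and RefSeq, in which all 4 members were found; of Cyp2a22, 430 bases of the last exon were outside the GENCODE transcript and left out of the word counts.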

Additional observations from a re-analysis of the deposited data

Results flagged for a closer look

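Within 40 groups of 6 mice (members, their ratios, other tested Cyp2 genes, electron donors and total counts), 4 had a mouse set apart from the rest by more than Dixon's 95% critical value for 6 samples, where about 1 in 20 groups is expected by chance. For Cyp2a22 in control mice, mouse 2 was set apart (gap over range 0.705) at 102 CPM against 67.4 CPM for the next. For Cyp2a22 in BIBB-515 mice, mouse 9 was set apart (0.650) at 71.3 CPM against 101 CPM for the next. The same mouse was lowest in the log2 ratio of Cyp2a22 to Cyp2a12 (0.665), at -3.28 against -2.92. In the log2 ratio of Cyp2a12 to Cyp2a5, BIBB-515 mouse 8 was lowest (0.627), at -0.96 against -0.75.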

How the results depend on the processing

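No paired analysis was possible because the diets share only 1 replicate number. Under 8 other choices (likelihood ratio test, limma-voom, DESeq2, upper-quartile scaling, no filter, a stricter filter, tables of primary alignments, 1 surrogate variable) the log2 fold changes ranged from 1.76 to 1.80 for Cyp2a5, 0.36 to 0.37 for Cyp2a12, 0.59 to 0.61 for Cyp2a22 and -0.37 to -0.33 for Cyp2a4, and the genes called from 1489 to 2436; no call on a member changed. With single mice left out the ranges were 1.68 to 1.93, 0.33 to 0.42, 0.54 to 0.76 and -0.49 to -0.20, with 1199 to 1865 genes called. Summing the counts of Cyp2a4 and Cyp2a5 reversed the sign for Cyp2a4, to 0.47, since the sum holds the rise of Cyp2a5. For the pairs, leaving out single mice gave 0.76 to 1.13 for Cyp2a22 over Cyp2a4, no longer past the threshold without BIBB-515 mouse 6, 7 or 8, and 0.17 to 0.39 for Cyp2a22 over Cyp2a12, past it without control mouse 2; a prior of 5 counts and the primary tables changed no pair. The primary tables were no separate check on the placement of reads, because they added few reads to the members. Shared sequence limits how many reads of Cyp2a4 and Cyp2a5 can be assigned.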
